A study of Mus musculus with 9 samples.

Results

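The members described here are the long noncoding RNA genes that mouse livers expressed above a fixed level. A gene was a member if its biotype was lincRNA, antisense or bidirectional_promoter_lncRNA and if it reached 1 FPKM or more in all 3 libraries of at least 1 group. FPKM is a read count divided by gene length and by a library size, which here differed from the total of assigned reads. Of 8550 genes of these biotypes, among 54532 genes in the table, 250 were members: 142 of 5559 lincRNA, 94 of 2826 antisense and 14 of 165 bidirectional promoter genes. The livers came from male wild-type C57BL/6J mice in 3 groups of 3 libraries. The first group ate normal chow and received vehicle. The second received vehicle on CDAA-HFD, a high-fat diet without choline that induces metabolic dysfunction-associated steatohepatitis (MASH). The third was fed CDAA-HFD and received 326E, a compound whose targets are ACLY and PPARα according to the series title, at 30 mg/kg for 6 weeks. The sample titles begin with MCD, whereas the growth protocol names CDAA-HFD, the name used here. The question of the study was which liver genes 326E alters in this diet model.

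Long noncoding RNAs are transcripts that are spliced and polyadenylated much like messenger RNAs but have no long reading frame. A lincRNA gene lies between protein-coding genes, an antisense gene lies on the strand opposite another gene, and a bidirectional promoter gene starts back to back with another gene. Most are present at low levels and in few tissues. A few have known roles, as scaffolds of nuclear bodies, as hosts of small nucleolar RNAs, or as regulators of the gene beside them.

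The 9 libraries held 13275888 to 17058316 reads assigned to genes, and 0.187% to 0.238% of these reads fell in the 250 members. The median member had 31 to 45 reads per library, and 56 to 92 members had under 20, so counting error is large for the weaker ones. On a principal component analysis of all genes tested, the groups separated on the first component (56.2% of the variance). On the second (15.3%), vehicle replicates 1 and 3 lay at 21.84 and 21.99 and vehicle replicate 2 at 5.28. Some of the results that rest on the vehicle group are therefore also given with vehicle replicate 2 alone, its spread assumed to be that of the other groups. With 1 library left in the group, a call can be lost there although the difference is no smaller. Whether every library comes from its own mouse is not said in the labels, so p-values measure the spread between these samples. In bulk liver, fewer cells of a type and less RNA per cell cannot be told apart. The strand setting of the read counting is not given in the sources used here. Reads of a gene and of a gene on its opposite strand therefore cannot be told apart, and 87 of the 250 members (61 antisense, 22 lincRNA and 4 bidirectional) share exonic bases with an opposite gene in GENCODE vM21.

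Because the rule used the levels themselves, a member was tested in a comparison only where it had 1 FPKM or more in all 6 libraries of both groups. For the other members values are given without a test. Tests were made with limma on log2(FPKM+1) over 13737 genes with Benjamini-Hochberg adjustment per comparison. A call is an adjusted p under 0.05. Differences below are on the log2(FPKM+1) scale, with the standard error after ±, and understate the change of weak genes.

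Sequences are shown for 4 members. They are Gm15441, Gm15611 and 9030616G12Rik, which were among the highest under 326E, and Hnf4aos, one of the most reduced under the diet. For Gm15441 (chromosome 3, 96566699 to 96566801, minus strand) and Gm15611 (chromosome 5, 8999520 to 8999669, minus strand) the lines give the first 103 and 150 bases of the longest GENCODE vM21 transcript on GRCm38. For 9030616G12Rik (chromosome 10, 128970947 to 128971246, plus strand) and Hnf4aos (chromosome 2, 163541672 to 163541971, minus strand) they give the 300 bases from 250 before to 50 after the start in RefSeq, on GRCm38.p6. In the promoter lines, capitals mark a match, with 2 mismatches, to the direct repeat AGGTCANAGGTCA, the type of element that PPARα binds together with RXR. The Gm15441 and Gm15611 lines were not searched for it.
Gm15441: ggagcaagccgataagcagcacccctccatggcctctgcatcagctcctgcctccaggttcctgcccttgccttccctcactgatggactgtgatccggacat
Gm15611: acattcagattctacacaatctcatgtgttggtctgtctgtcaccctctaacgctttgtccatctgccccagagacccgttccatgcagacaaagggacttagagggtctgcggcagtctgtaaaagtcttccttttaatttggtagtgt
9030616G12Rik: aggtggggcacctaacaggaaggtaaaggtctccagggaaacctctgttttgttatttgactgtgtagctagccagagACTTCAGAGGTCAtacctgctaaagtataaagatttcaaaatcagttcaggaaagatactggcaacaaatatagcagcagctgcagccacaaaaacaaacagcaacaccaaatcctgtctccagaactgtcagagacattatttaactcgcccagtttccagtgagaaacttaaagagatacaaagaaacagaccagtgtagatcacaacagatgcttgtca
Hnf4aos: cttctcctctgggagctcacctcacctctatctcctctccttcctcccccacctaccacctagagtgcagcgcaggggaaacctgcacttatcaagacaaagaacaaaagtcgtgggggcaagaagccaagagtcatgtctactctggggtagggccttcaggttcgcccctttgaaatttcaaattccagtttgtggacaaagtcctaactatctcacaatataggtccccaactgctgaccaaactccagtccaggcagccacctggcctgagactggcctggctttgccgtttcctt

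The repeat was searched in RefSeq promoter sequences only, on both strands with up to 2 mismatches. Of the 115 members that had a RefSeq promoter entry at the same start, 2 held a match (1.74%), against 4.40% of 27025 genes. A gene counted if any of its entries matched, and a member only by entries at its start, so these shares are not like for like. Of all 32851 promoters, 3.86% held a match. Of the members that rose under 326E, 5 had an entry and 1, 9030616G12Rik, held a match, which began at base 79 of the sequence shown. A match describes these letters and is not a binding site.

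In level, the members lay below protein-coding genes. The median member had a mean of 1.78 FPKM over the 9 libraries, against 5.45 FPKM for the 10309 protein-coding genes that met the same FPKM rule, and 26 of the 250 members averaged over 10 FPKM. They also varied more between replicates. The 2 sets were not matched for level or length, so the larger counting error of weak genes was not separated from this. The median coefficient of variation was 23.6% in chow, 29.7% in vehicle and 21.1% in 326E livers, against 12.2%, 12.2% and 11.3% for the protein-coding genes. Their exonic length had a median of 1272.5 bases, and 24 had a single exon in every annotated transcript. Of the members, 94 overlapped a protein-coding gene on the opposite strand, 42 others had a protein-coding start within 5 kb and 114 had neither. Exonic bases were shared with a gene on the same strand by 14 members.

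The highest was AW112010 (chromosome 19, 11047617 to 11050566), an RNA known from activated immune cells. It measured 72.9, 91.6 and 63.9 FPKM in chow, 69.4, 92.7 and 101 FPKM in vehicle and 78.5, 84.5 and 73.7 FPKM in 326E livers. The groups overlapped, and no comparison passed (limma adjusted p = 0.383, 0.646 and 0.818 for the diet, for 326E over vehicle and for 326E over chow). Gm14097, antisense to Shld1, followed with a mean of 44 FPKM and Gm10076 with 38.1 FPKM, and neither passed in any comparison. Gm10076 was uneven within groups, at 80.9, 15.9 and 41.5 FPKM in the chow libraries. Ndufb1-ps averaged 27.2, Gm15441 27.1 and 0610005C13Rik 25.4 FPKM. The seventh, 2900097C17Rik, is the mouse locus of Norad, a cytoplasmic RNA that binds Pumilio proteins. It measured 22.8, 23.4 and 28.1 FPKM in chow, 26.8, 25 and 19.7 FPKM in vehicle and 20.4, 22.9 and 22.3 FPKM in 326E livers, the groups overlapped, and no comparison passed, with adjusted p = 0.755, 0.629 and 0.38 (limma). The eighth, 1810058I24Rik, averaged 22.5 FPKM and did not pass either.

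Membership itself differed between groups. In chow livers 189 members met the level in all 3 libraries, in vehicle livers 142 and in 326E livers 159, whereas the protein-coding genes numbered 9203, 9826 and 9743. Single libraries held 205 to 210 members at 1 FPKM or more in chow, 168 to 188 in vehicle and 191 to 193 in 326E livers, and the groups did not overlap. The library sizes behind the deposited FPKM were 0.828 to 0.860 of total assigned reads in chow, 1.04 to 1.19 in vehicle and 1.01 to 1.15 in 326E libraries. Chow FPKM are therefore raised relative to plain scaling by total reads, and CDAA-HFD FPKM lowered. With values scaled to total assigned reads, 239 genes were members and 165, 155 and 165 met the level, so the gap between groups narrowed. Of the 250, 94 met the level in all groups, 54 in chow only, 35 in chow and 326E, 31 in vehicle only, 19 in 326E only, 11 in both CDAA-HFD groups and 6 in chow and vehicle. These counts are what the rule selected on and carry no test. Just inside the threshold, with the lowest library of their best group at 1.001, 1.03 and 1.03 FPKM, were CT027991.1, Gm26982 and 4833413G10Rik. Just outside, at 0.999, 0.998 and 0.993 FPKM, were Gm20632, Gm26532 and Gm45086.

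**Figure D1:**
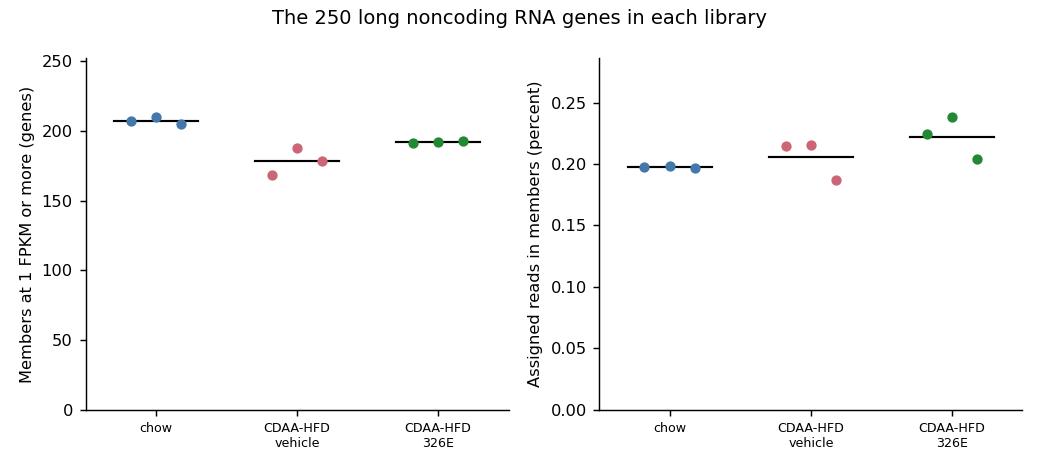
Number of members at 1 FPKM or more (left) and percent of assigned reads in members (right), 1 point per library with the group mean as a bar, for chow, CDAA-HFD with vehicle and CDAA-HFD with 326E. The chow libraries hold 205 to 210 members, above the 168 to 188 of the vehicle libraries, while the share of reads in the vehicle libraries overlaps that of both other groups.

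The main question, 326E against vehicle, could be tested for 105 members. Of these, 12 rose and 7 fell. Among all genes tested 4.96% rose and 6.5% fell, and among protein-coding genes at the same level 5.61% and 6.94%, so the share that fell was near the background. The median difference was 0.08, against -0.02 for all genes. By class, 11 lincRNA rose and 5 fell of 63, 1 antisense gene rose and 1 fell of 36, and 1 of 6 bidirectional genes fell. The count that rose was 6 without vehicle replicate 1 and 7 without 326E replicate 1. The count that fell was 3 without vehicle replicate 3, and 2 to 3 when a 326E library was left out. With vehicle replicate 2 alone, most of the 19 calls were lost and 0 changed sign. The differences moved either way, from 0.91 to 1.05 for Gm39929 and from -0.60 to -0.355 for Gm26809.

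The largest rise among the tested members was that of Gm15611 (chromosome 5, 8998402 to 8999669), a 2-exon lincRNA whose first bases are shown above. It measured 9.35, 5.51 and 10.8 FPKM in chow, 5.72, 4.85 and 4.57 FPKM in vehicle and 37.1, 17.3 and 74.6 FPKM in 326E livers. Every 326E library lay above every other library, with a wide spread among the 326E livers. It rose by 2.64 ± 0.44 against vehicle (limma adjusted p = 0.00781) and by 2.02 ± 0.44 against chow (adjusted p = 0.00971). The call against vehicle held without each library in turn, and with vehicle replicate 2 alone the difference was 2.68 (adjusted p = 0.0987). Gm15611 lies 5′ of Crot on the same strand, with starts 2345 bases apart. Crot encodes the peroxisomal carnitine octanoyltransferase, which passes shortened fatty acids on from peroxisomes. Crot measured 124, 96.2 and 124 FPKM in vehicle and 193, 197 and 291 FPKM in 326E livers, and rose by 0.96 ± 0.20 (adjusted p = 0.0182). This was the only pair of the 49 tested against vehicle in which member and partner both passed. Of all genes tested, 11.5% passed in this comparison.

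The lincRNA 1700080G11Rik (chromosome 4, 127531622 to 127532885) had the smallest adjusted p of the named members in this comparison. Its values were 6.04, 3.54 and 5.85 FPKM in chow, 2.38, 2.71 and 3.19 FPKM in vehicle and 12.9, 16.6 and 19.4 FPKM in 326E livers. The 326E libraries lay above all others, and the vehicle libraries below all others. It rose by 2.19 ± 0.20 against vehicle (limma adjusted p = 0.00086), and by 2.20 (adjusted p = 0.0324) with vehicle replicate 2 alone. Against chow, it rose by 1.5 ± 0.20 under 326E (adjusted p = 0.000883). In vehicle livers it fell by 0.69 ± 0.20 from chow (adjusted p = 0.0211), a call lost without chow replicate 1 or 3 or vehicle replicate 1 or 2 (adjusted p = 0.052 to 0.0743), with voom (adjusted p = 0.0891), with vehicle replicate 2 alone (-0.70, adjusted p = 0.133) and scaled to total reads (adjusted p = 0.113).

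The lincRNA 1810008I18Rik (chromosome 7, 65803111 to 65806449) passed in all 3 comparisons. It measured 34.8, 40.7 and 27.2 FPKM in chow, 7.22, 6.61 and 9.64 FPKM in vehicle and 15.3, 16.2 and 15.1 FPKM in 326E livers. The 3 groups did not overlap, with 326E between vehicle and chow. It fell by 1.99 ± 0.16 on the diet (limma adjusted p = 3.49e-05), rose by 0.92 ± 0.16 under 326E (adjusted p = 0.0101) and remained 1.07 ± 0.16 lower than chow (adjusted p = 0.0019). All these calls held without each library in turn and with vehicle replicate 2 alone.

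For 9030616G12Rik (chromosome 10, 128971197 to 128978115), whose promoter is printed above, the libraries gave 16.2, 8.03 and 10.9 FPKM in chow, 6.07, 10.7 and 9.01 FPKM in vehicle and 20.6, 22 and 17.3 FPKM in 326E livers. The 326E libraries were the highest 3 of the 9. The rise of 1.15 ± 0.25 against vehicle passed (limma adjusted p = 0.0207), but the call was lost without vehicle replicate 1 or 3 or 326E replicate 1 or 2 (adjusted p = 0.0515 to 0.075), with the replicate block (adjusted p = 0.0551), when low genes were kept (adjusted p = 0.0541) and with vehicle replicate 2 alone (0.83, adjusted p = 0.23). Against chow the difference was 0.76 ± 0.25 (adjusted p = 0.0496), lost in 6 of the 9 fits that leave out 1 library.

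1300002E11Rik (chromosome 16, 21794318 to 21809040) starts 28 bases from Map3k13, a kinase gene, on the same strand. Of its exonic bases, 5.39% are shared with a gene on that strand. Its levels were 2.15, 1.78 and 2.51 FPKM in chow, 1.64, 2.29 and 1.82 FPKM in vehicle and 3.94, 4.87 and 4.54 FPKM in 326E livers. Again no 326E library overlapped the others. It rose by 0.91 ± 0.12 against vehicle (limma adjusted p = 0.00413), without a loss when each library was left out, and the difference was 0.73 (adjusted p = 0.0788) with vehicle replicate 2 alone. Map3k13 itself had -0.28 ± 0.21 under 326E (adjusted p = 0.435) and a rise of 1.43 ± 0.21 on the diet (adjusted p = 0.000817), where 1300002E11Rik had -0.11 ± 0.12 (adjusted p = 0.52).

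Neat1 (chromosome 19, 5824708 to 5845478), the RNA on which paraspeckles are built, measured 1.29, 1.91 and 1.3 FPKM in chow, 3.27, 3.47 and 2.88 FPKM in vehicle and 6.55, 6.32 and 4.46 FPKM in 326E livers. The 3 groups did not overlap, and the order was chow, vehicle, 326E. The rise on the diet was 0.76 ± 0.15 (limma adjusted p = 0.00348) and that of 326E over vehicle 0.68 ± 0.15 (adjusted p = 0.0223). The second call was lost without vehicle replicate 1 or 3 or 326E replicate 1 or 2 (adjusted p = 0.0516 to 0.0817), when low genes were kept (adjusted p = 0.0555) and with vehicle replicate 2 alone (0.59, adjusted p = 0.23). The long form of Neat1 ends without a poly(A) tail, and the libraries were made from poly(A) RNA.

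Gm39929 (chromosome 2, 128601765 to 128609630) met the level in both CDAA-HFD groups. It stood at 0.112, 0 and 0.525 FPKM in chow, 1.68, 1.63 and 2.43 FPKM in vehicle and 3.43, 5.27 and 4.82 FPKM in 326E livers. No 2 groups overlapped. It rose by 0.91 ± 0.19 over vehicle (limma adjusted p = 0.0192), a call lost without vehicle replicate 1 or 326E replicate 2 or 3 (adjusted p = 0.0559 to 0.0731), when low genes were kept (adjusted p = 0.054) and with vehicle replicate 2 alone (1.05, adjusted p = 0.104). Differences from chow carry no test, since the rule used them. Gm17753, 2668 bases from the start of the linker histone gene H1f0, rose by 0.71 ± 0.18 (adjusted p = 0.0358), a call lost without chow replicate 1, vehicle replicate 1 or 2, or 326E replicate 1 or 3 (adjusted p = 0.0541 to 0.116), when low genes were kept (adjusted p = 0.0832) and with vehicle replicate 2 alone (1.005, adjusted p = 0.0762). The other 4 that rose were Gm2814, 1810034E14Rik, Gm44421 and Tmem250-ps, by 0.82, 0.54, 0.50 and 0.43.

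**Figure D2:**
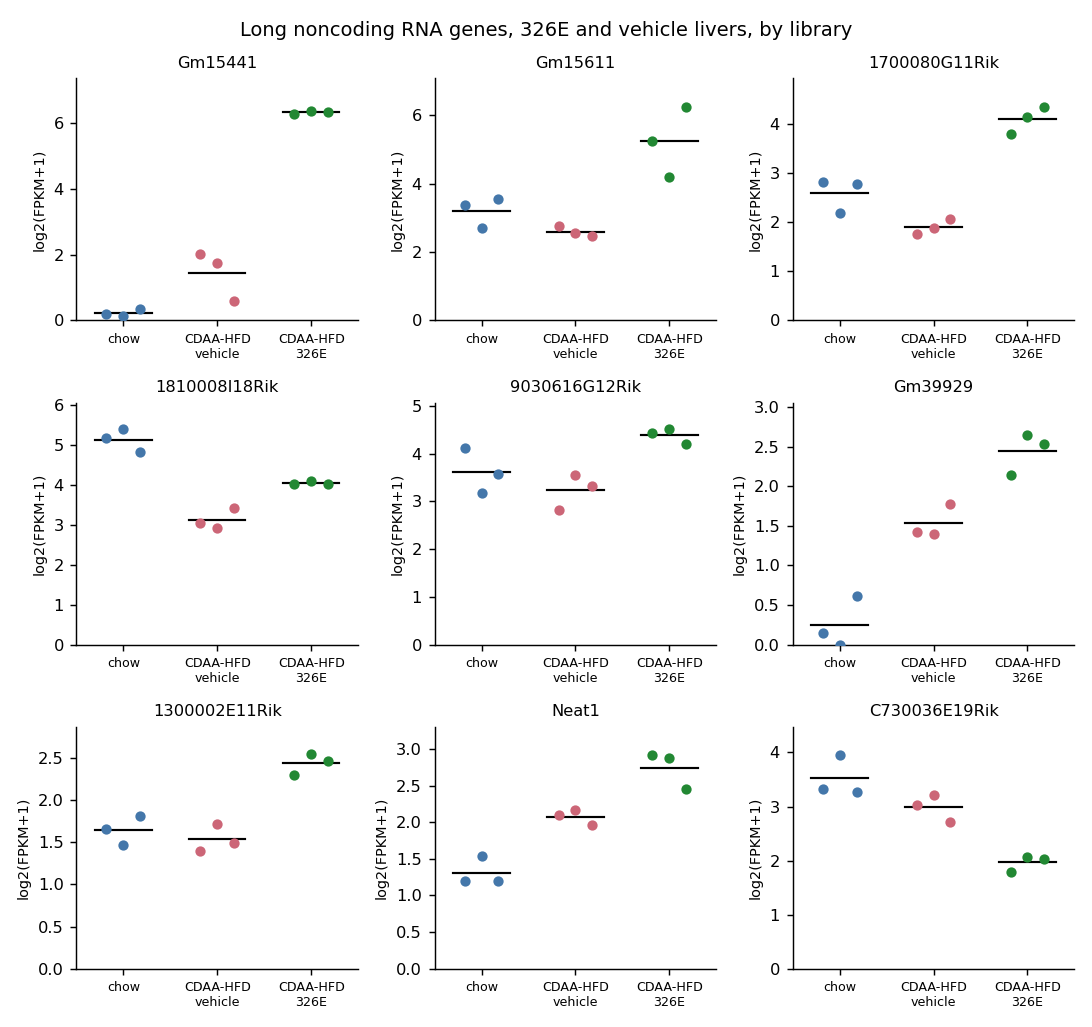
Level of 9 members on the log2(FPKM+1) scale, each in its own panel, with 1 point per library and the group mean as a bar, for chow, CDAA-HFD with vehicle and CDAA-HFD with 326E. Gm15441 is near 0 in chow and between 75.9 and 81.8 FPKM in the 326E libraries, and C730036E19Rik is lowest in the 326E libraries.

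The member with the highest level under 326E was Gm15441 (chromosome 3, 96555765 to 96566801), which met the rule in the 326E group alone and so has no test. It is a 4-exon antisense RNA at the Txnip gene, described in mouse liver as a target of PPARα. It measured 0.139, 0.0921 and 0.272 FPKM in chow, 3.06, 2.35 and 0.519 FPKM in vehicle and 75.9, 81.8 and 79.7 FPKM in 326E livers, which are 3, 2 and 5 reads in chow, 84, 80 and 15 in vehicle and 2247, 2476 and 2037 in 326E livers. The 326E libraries lay far above the others and close together, and the chow libraries below the vehicle libraries. The ratio of mean FPKM was 40.0 between 326E and vehicle. Txnip, which encodes the thioredoxin-interacting protein, shares 606 exonic bases with Gm15441 on the opposite strand, and 36.2% of the exonic bases of Gm15441 overlap an opposite exon. Txnip measured 67.6, 29.4 and 141 FPKM in chow, 27.3, 126 and 34.5 FPKM in vehicle and 72.8, 79.1 and 76.8 FPKM in 326E livers. Its groups overlapped, and the difference between 326E and vehicle was 0.62 ± 0.62 (limma adjusted p = 0.562).

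Other members met the rule under 326E only, or not in vehicle, and are given by value. Gm32468 measured 0.568, 0.594 and 0.324 FPKM in vehicle and 5.21, 3.34 and 6.09 FPKM in 326E livers, and 0.72, 1.87 and 1.35 FPKM in chow. AC154762.2, antisense to Hgd, an enzyme of tyrosine breakdown, went from 0, 0.645 and 0.951 to 6.87, 3.63 and 2.15 FPKM, and Gm11832 from 0.141, 0 and 1.21 to 2.88, 3.46 and 3.64 FPKM. In all 3 of them the 326E libraries were the highest. Gm44427 had 0.402, 0.432 and 1.02 FPKM in vehicle and 3.48, 2.67 and 4.6 FPKM in 326E livers. Gm38079, with 3.52, 3.01 and 10.05 FPKM in chow, had 1.59, 0 and 1.13 FPKM in vehicle and 4.04, 6.11 and 5.96 FPKM in 326E livers. Its single exon of 154 bases makes each read weigh heavily.

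Over all 250 members, 56 were higher and 29 lower under 326E than under vehicle without overlap of the groups, against 14.8% and 18.2% of all genes tested. Since 91 members met the rule in 1 of these groups and not in the other, these counts are a description.

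C730036E19Rik (chromosome 1, 151138034 to 151142345) had the largest fall under 326E among the tested members. It measured 9.07, 14.6 and 8.67 FPKM in chow, 7.16, 8.21 and 5.58 FPKM in vehicle and 2.47, 3.21 and 3.09 FPKM in 326E livers. All 326E libraries were below all others. It fell by 1.02 ± 0.20 against vehicle (limma adjusted p = 0.0143) and by 1.56 ± 0.20 against chow (adjusted p = 0.000748). The call against vehicle held without each library in turn, and the difference was -1.24 (adjusted p = 0.0708) with vehicle replicate 2 alone.

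Gm36161 was nearly absent from chow livers, at 0, 0 and 0.0603 FPKM. On CDAA-HFD it measured 4.37, 6.78 and 5.12 FPKM with vehicle and 1.88, 2.57 and 2.74 FPKM with 326E, without overlap. It fell by 0.91 ± 0.15 under 326E (limma adjusted p = 0.00756), which held without each library in turn and with vehicle replicate 2 alone (-1.21, adjusted p = 0.0332).

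The lincRNA genes AU020206 and Gm26809 rose on the diet and fell under 326E. AU020206 (chromosome 7, 75769038 to 75782099) measured 1.29, 1.65 and 1.2 FPKM in chow, 6.4, 9.87 and 6.28 FPKM in vehicle and 4.84, 3.97 and 3.04 FPKM in 326E livers. It rose by 1.82 ± 0.19 on the diet (limma adjusted p = 0.000103) and fell by 0.77 ± 0.19 under 326E (adjusted p = 0.0299), the latter lost without vehicle replicate 2 or 326E replicate 2 or 3 (adjusted p = 0.0574 to 0.0959) and with no filter (adjusted p = 0.0735). With vehicle replicate 2 alone, the difference between 326E and vehicle was -1.15. Gm26809 measured 1.92, 1.19 and 1.83 FPKM in chow, 6.79, 5.73 and 8.59 FPKM in vehicle and 4.27, 4.18 and 4.33 FPKM in 326E livers. It rose by 1.60 ± 0.15 (adjusted p = 6.68e-05) and fell by 0.60 ± 0.15 (adjusted p = 0.035), the latter lost without vehicle replicate 1 or 3 or any 326E replicate (adjusted p = 0.074 to 0.105), when low genes were kept (adjusted p = 0.0808) and with vehicle replicate 2 alone (-0.355, adjusted p = 0.348). Of Gm26809, 28.7% of the exonic bases overlap an opposite exon. In both genes the groups did not overlap, and 326E lay between chow and vehicle.

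Markers of some other cell types moved beside these genes. The summed level of 12 macrophage markers was 130.3 to 146 FPKM in chow, 565 to 671 FPKM in vehicle and 283 to 396 FPKM in 326E livers. Of the 12, 10 rose and 1 fell on the diet, and 1 rose and 6 fell under 326E. The 10 markers of stellate cells and myofibroblasts summed to 49.3 to 66.7, 247 to 363 and 160 to 189 FPKM in the same order, with 8 higher on the diet and 6 lower under 326E. The 7 cholangiocyte markers summed to 34.6 to 58.0, 116 to 343 and 84.4 to 143 FPKM, with 3 of 5 tested higher on the diet. Most of that sum was Spp1, at 29.2 to 42.6, 103 to 306 and 74.5 to 122 FPKM. Of the others, Krt7, Krt19 and Cd24a overlapped between chow and vehicle livers, whereas Epcam, Sox9 and Cftr did not. Under 326E limma called 0 of 5, with 2 at an unadjusted p under 0.05 and 0 called by voom. The 6 endothelial markers summed to 46.9 to 56.6, 50.3 to 62.5 and 60.8 to 66.0 FPKM in the same order. On the diet 2 were called higher and 1 lower. Under 326E limma called 0, with 3 at an unadjusted p under 0.05 and 0 called by voom. The 7 lymphocyte markers summed to 1.27 to 1.83, 2.69 to 5.94 and 1.90 to 6.15 FPKM. All 7 were under 1 FPKM in every chow library, and of 2 tested, 1 was called higher on the diet and 0 under 326E. No marker was at 0 in all libraries. Gpnmb, Mmp12, Itgax, Trem2, Timp1, Krt7 and Cftr were also under 1 FPKM in every chow library. The first 5 of these passed the filter of 0.5 FPKM only through CDAA-HFD libraries, so their rises on the diet are a description. The lymphocyte markers tested, Nkg7 and Cd8a, reached 0.5 FPKM mostly in CDAA-HFD libraries, so the rise called there is also a description. Among all genes tested, 20.8% rose and 20.8% fell on the diet, and 4.96% rose and 6.5% fell under 326E. The part of these cell types in the results of AU020206, Gm26809, Gm36161 and Neat1 was not tested.

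AC154577.1 and Gm19950 were also called lower under 326E. AC154577.1 fell by 0.81 ± 0.22 (limma adjusted p = 0.0428), lost without chow replicate 1, vehicle replicate 1 or 3 or any 326E replicate (adjusted p = 0.0607 to 0.132), with the replicate block (adjusted p = 0.0848), with voom (adjusted p = 0.0572), when low genes were kept (adjusted p = 0.101) and with vehicle replicate 2 alone (-0.59, adjusted p = 0.365). Gm19950, antisense to the acyl-CoA synthetase gene Acsm1, fell by 0.53 ± 0.11 (adjusted p = 0.0182), lost without vehicle replicate 1 or 3 or 326E replicate 1 or 2 (adjusted p = 0.0509 to 0.0694) and with vehicle replicate 2 alone (-0.40, adjusted p = 0.239). The remaining member that fell was Gm36172, which starts 135 bases from Arg1, the arginase gene of the urea cycle, on the opposite strand. It fell by 0.44 (adjusted p = 0.0408).

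Several members met the rule in vehicle livers and not under 326E, and are given without a test. Gm48199 measured 1.48, 7.54 and 6.08 FPKM in vehicle and 0.342, 0.335 and 0.396 FPKM in 326E livers, but also 0.312, 7 and 2.2 FPKM in chow, so its chow libraries spanned both. Gm42047 measured 11.2, 6.18 and 4.4 and 0.531, 3.64 and 1.3 FPKM, and F630028O10Rik 1.89, 1.7 and 2.43 and 0.79, 0.806 and 0.477 FPKM. For each, the vehicle libraries were above the 326E libraries. 1700045H11Rik, antisense to Errfi1, an inhibitor of ERBB receptors, had 3.4, 1.74 and 2.54 FPKM in vehicle and 0.954, 0.28 and 0.774 FPKM in 326E livers. Gm26779 had 2.11, 1.25 and 1.26 FPKM in vehicle and 0.103, 0.804 and 0.357 FPKM in 326E livers.

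The effect of the diet, vehicle against chow, could be tested for 100 members. Of these, 4 rose and 47 fell. Among all genes tested 20.8% rose and 20.8% fell, and among protein-coding genes at the same level 15.7% and 25.7%. The median difference was -0.48, against -0.04 for all genes. A difference of 2-fold or more in FPKM+1 was reached by 3 of those that rose and 18 of those that fell, against 7.71% and 3.55% of all genes. By class, 28 of 60 lincRNA, 14 of 34 antisense and 5 of 6 bidirectional genes fell. Among the 69 tested members without opposite exons, 2 rose and 33 fell. Scaled to total assigned reads, the median of the members was -0.17 and that of all genes 0.25. Then 12 members rose and 27 fell, against 36.9% and 7.0% of all genes, and 31 of the 51 calls remained. With vehicle replicate 2 alone, part of the 51 calls was lost and 0 changed sign.

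The 7 hepatocyte markers, Hnf4a among them, summed to 41835 to 49164 FPKM in chow, 27721 to 42680 FPKM in vehicle and 25785 to 37131 FPKM in 326E livers, with 4 of 7 lower on the diet. Chow and vehicle overlapped in this sum, most of which was Alb, at 25921 to 34911 FPKM in chow and 20061 to 32449 FPKM in vehicle livers. Each of the other markers was lower in every vehicle library than in every chow library. Ttr, for example, had 3935 to 4141 FPKM in chow and 1314 to 2126 FPKM in vehicle livers. The part of hepatocyte content in the falls was not tested.

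The largest fall on the diet among the tested members was that of Gm31583 (chromosome 16, 24085083 to 24090089), a lincRNA. It has no protein-coding start within 5 kb of its own start and overlaps no protein-coding gene on the opposite strand. It measured 33.4, 33.9 and 36.1 FPKM in chow, 1.77, 3.69 and 3.48 FPKM in vehicle and 1.77, 1.59 and 2.25 FPKM in 326E livers. Chow libraries lay above all CDAA-HFD libraries, by several-fold, and vehicle and 326E overlapped. It fell by 3.19 ± 0.19 in vehicle (limma adjusted p = 8.4e-06) and by 3.63 ± 0.19 in 326E livers (adjusted p = 1.23e-05). Between 326E and vehicle the difference was -0.44 ± 0.19 (adjusted p = 0.166).

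Gm12909 (chromosome 4, 62088288 to 62090524) starts 946 bases from Mup3, a gene of a urinary protein, on the opposite strand. It measured 14.5, 11.5 and 9.84 FPKM in chow, 1.68, 2.06 and 3.28 FPKM in vehicle and 3.01, 2.59 and 3.91 FPKM in 326E livers. It fell by 1.97 ± 0.20 on the diet (limma adjusted p = 0.000106), and Mup3 by 3.08 ± 0.23 (adjusted p = 2.17e-05). Mup genes have near-identical copies, so the reads of this locus are uncertain. Gm48633 and Gm30784, lincRNA genes without a protein-coding start within 5 kb of their own, went the same way. Gm48633 had 25.8, 35.5 and 25.6 FPKM in chow and 5.93, 10.4 and 14.4 FPKM in vehicle livers, and fell by 1.47 ± 0.27 (adjusted p = 0.00231). Gm30784 had 9.27, 11.3 and 5.5 FPKM and 1.85, 2.97 and 2.56 FPKM, and fell by 1.45 ± 0.23 (adjusted p = 0.00109).

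Gm17753 measured 9.62, 9.21 and 12.5 FPKM in chow, 3.42, 2.54 and 4.18 FPKM in vehicle and 6.12, 4.95 and 7.45 FPKM in 326E livers. The 3 groups did not overlap. It fell by 1.39 ± 0.18 on the diet (limma adjusted p = 0.000373), as did H1f0 beside it, by 0.64 ± 0.09 (adjusted p = 0.000432). Of the most abundant members, 0610005C13Rik fell by 1.12 ± 0.14 (adjusted p = 0.000305). It lies antisense to Bcat2, an aminotransferase of branched-chain amino acids, which fell by 0.62 ± 0.14 (adjusted p = 0.00772). They share 622 exonic bases. Ndufb1-ps fell by 0.58 ± 0.16 (adjusted p = 0.0192), a call lost without chow replicate 1 or 3 or vehicle replicate 2 or 3 (adjusted p = 0.057 to 0.0668) and scaled to total reads (-0.19, adjusted p = 0.351).

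Malat1 (chromosome 19, 5795690 to 5802672), an abundant RNA of nuclear speckles that ends without a poly(A) tail, measured 10.1, 15.8 and 14.3 FPKM in chow, 40.1, 21.1 and 26.1 FPKM in vehicle and 24.9, 25.3 and 12.6 FPKM in 326E livers. Chow and vehicle libraries did not overlap, and the 326E libraries spanned both. It rose by 1.04 ± 0.31 on the diet (limma adjusted p = 0.0238). The call was lost without chow replicate 1 or vehicle replicate 1 (adjusted p = 0.0775 to 0.0821), when low genes were kept (adjusted p = 0.0563) and with vehicle replicate 2 alone (0.64, adjusted p = 0.291). Under 326E the difference from vehicle was -0.47 ± 0.31 (adjusted p = 0.352).

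**Figure D3:**
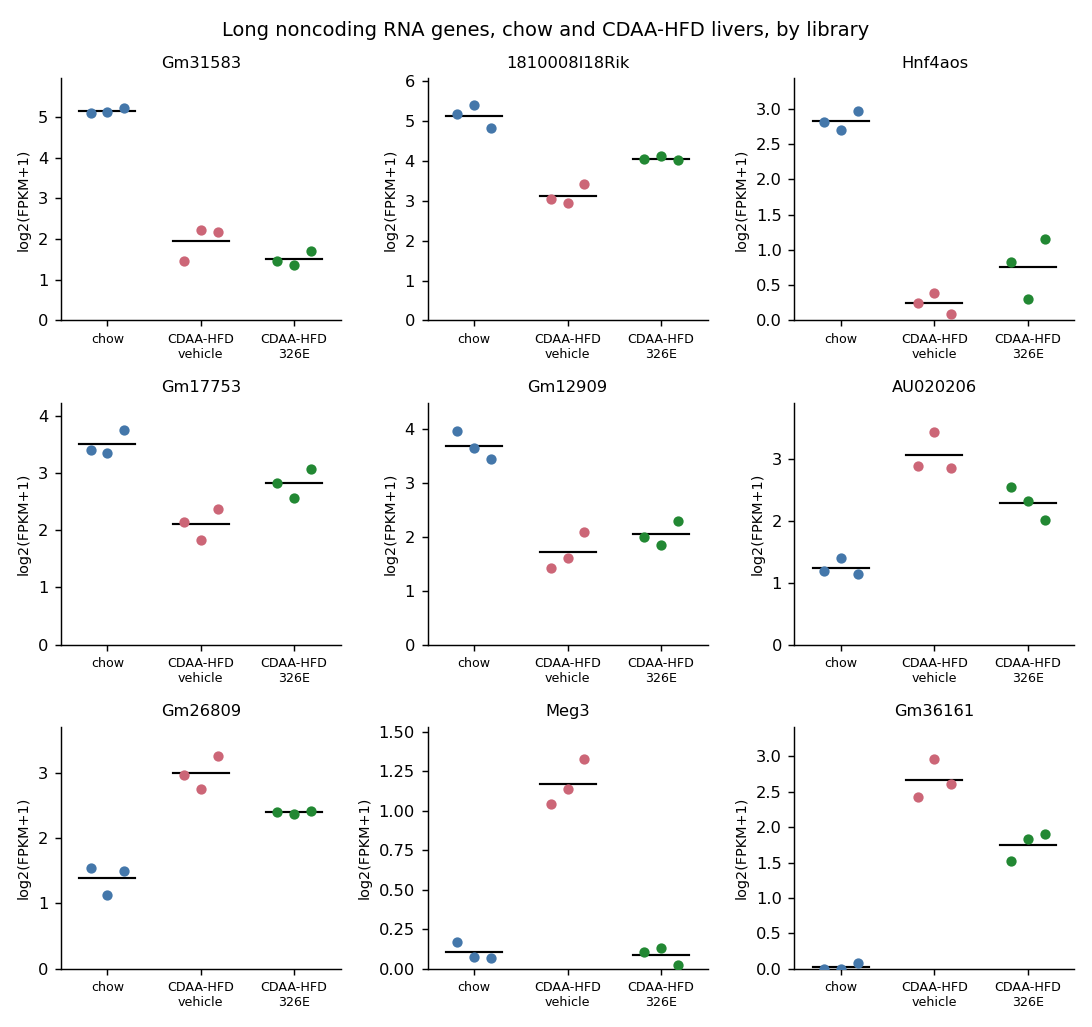
Level of 9 members on the log2(FPKM+1) scale, each in its own panel, with 1 point per library and the group mean as a bar, for chow, CDAA-HFD with vehicle and CDAA-HFD with 326E. Gm31583 lies between 33.4 and 36.1 FPKM in chow and below 4 FPKM in all CDAA-HFD libraries, and Meg3 is above 1 FPKM only in the vehicle libraries.

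The remaining 150 members were not tested between vehicle and chow, because 89 met the level in chow and not in vehicle livers, 42 in vehicle and not in chow livers, and 19 in neither. Over all 250 members 31 were higher and 121 lower in vehicle livers without overlap, against 24.9% and 27% of all genes tested. The rule used these values, so the counts are a description. Among those without a test, Gm12718 measured 5.78, 1.41 and 5.5 FPKM in chow, 0.172, 0 and 0 FPKM in vehicle and 0, 0 and 0.0922 FPKM in 326E livers. Gm35696 measured 21.2, 6.66 and 12.1 FPKM in chow, 0.251, 2.73 and 0.954 FPKM in vehicle and 4.83, 4.1 and 4.78 FPKM in 326E livers, so it was lowest in vehicle livers. Gm34654 had 1.59, 8.66 and 1.36 FPKM in chow and 0.571, 0.092 and 0.217 FPKM in vehicle livers, and its chow replicate 2 stood apart. In each, all chow libraries were above all vehicle libraries. Gm44096, antisense to the complement gene C1rl, had 5.23, 4.75 and 7.22 FPKM in chow and 0.606, 0.879 and 1.73 FPKM in vehicle livers. It was tested only between 326E and chow, and fell by 1.34 ± 0.20 (limma adjusted p = 0.00164).

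In the opposite direction, Gm11695 measured 0.381, 2.09 and 0 FPKM in chow, 8.26, 9.79 and 8.7 FPKM in vehicle and 5.42, 7.89 and 9.02 FPKM in 326E livers. It lies antisense to Slc16a5, a monocarboxylate transporter gene, which rose by 2.16 ± 0.30 on the diet (limma adjusted p = 0.000575) and shares 104 exonic bases with it. 4930430E12Rik was at 0 reads in the 3 chow libraries and at 1.08, 3.64 and 1.74 FPKM in vehicle livers. Gm19619 had 0.145, 0.289 and 0.597 FPKM in chow and 2.94, 2.2 and 2.41 FPKM in vehicle livers, and Gm19705 0.249, 0.347 and 0.175 and 2, 2.4 and 1.83 FPKM. In these 4 genes no chow library reached the lowest vehicle library. Against vehicle, 326E made no difference that passed in Gm11695, Gm19619 or Gm19705 (adjusted p = 0.684, 0.565 and 0.439).

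Hnf4aos and Gm45091 are antisense RNAs at genes of liver transcription factors, and both met the level in chow livers alone. Hnf4aos (chromosome 2, 163493807 to 163541720), whose promoter is printed above, overlaps Hnf4a, a nuclear receptor that maintains hepatocyte identity, without shared exonic bases. It measured 6.01, 5.5 and 6.87 FPKM in chow, 0.192, 0.309 and 0.0608 FPKM in vehicle and 0.771, 0.232 and 1.24 FPKM in 326E livers, so the chow libraries were far above all others and vehicle and 326E overlapped. It has no test. Hnf4a measured 146, 181 and 123 FPKM in chow, 86.6, 81.7 and 84.5 FPKM in vehicle and 103, 86.8 and 90.8 FPKM in 326E livers, and fell by 0.81 ± 0.14 on the diet (limma adjusted p = 0.00211) and by 0.66 ± 0.14 in 326E livers against chow (adjusted p = 0.00977). Gm45091, antisense to Cebpa, another factor of hepatocytes, measured 4, 3.52 and 2.17 FPKM in chow, 0.364, 0.293 and 0.806 FPKM in vehicle and 0.786, 0.659 and 1.17 FPKM in 326E livers, with no overlap of chow with the others and no test. Cebpa fell by 0.81 ± 0.17 on the diet (adjusted p = 0.00495).

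Between 326E and chow, 129 members could be tested, of which 9 rose and 41 fell. Among all genes tested 14.4% rose and 12.5% fell, and among protein-coding genes at the same level 10.6% and 15.6%. The median was -0.31, against -0.02 for all genes. Scaled to total assigned reads, the median of the members was -0.05 and that of all genes 0.23, and 13 members rose and 23 fell, against 28.7% and 4.32% of all genes. Tmem250-ps then changed sign. Without overlap, 39 of all members were higher and 100 lower, against 22.4% and 22.6% of all genes tested, which is a description. This comparison shares its libraries with both others, so its values are not independent of theirs.

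Gm44706 passed here. It is antisense to Pex11a, a gene of peroxisome division, without shared exonic bases, and measured 2.66, 3.31 and 4.13 FPKM in chow, 4.05, 8.03 and 2.21 FPKM in vehicle and 9.37, 14.1 and 7.96 FPKM in 326E livers. The chow libraries were all below the 326E libraries, and vehicle replicate 2 reached them. It rose by 1.37 ± 0.34 against chow (limma adjusted p = 0.0182), a call lost without chow replicate 1 or 326E replicate 2 (adjusted p = 0.0605 to 0.0689), and had 1.09 ± 0.34 against vehicle (adjusted p = 0.0744). Pex11a measured 36.7, 30.7 and 20.8 FPKM in vehicle and 77.5, 75.1 and 74.1 FPKM in 326E livers and rose by 1.37 ± 0.20 (adjusted p = 0.00496). Gm34667 fell by 1.65 ± 0.13 from chow under 326E (adjusted p = 0.000107) and by 1.30 ± 0.13 in vehicle livers (adjusted p = 0.000108).

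Gm32872, Gm44787 and 5730414N17Rik met the level in chow and vehicle livers but not under 326E. Gm32872 measured 5.67, 5.65 and 8.44 FPKM in chow, 2.68, 2.64 and 1.13 FPKM in vehicle and 0, 1.35 and 0.959 FPKM in 326E livers and fell by 1.29 ± 0.33 on the diet (limma adjusted p = 0.0129). The call was lost with vehicle replicate 2 alone (-1.04, adjusted p = 0.14) and with a pseudocount of 0.1 FPKM (adjusted p = 0.16). 5730414N17Rik, near the start of the histone methyltransferase gene Kmt2d, fell by 0.85 ± 0.17 (adjusted p = 0.00431), a call lost with vehicle replicate 2 alone (adjusted p = 0.066), whereas Kmt2d rose by 0.41 ± 0.12 (adjusted p = 0.0208). Gm44787 fell by 1.0 ± 0.35 (adjusted p = 0.0448), a call lost in 6 of the 9 fits that leave out 1 library (adjusted p up to 0.134), with vehicle replicate 2 alone (-0.73, adjusted p = 0.359), when low genes were kept (adjusted p = 0.101), with voom (adjusted p = 0.0505) and scaled to total reads (adjusted p = 0.116).

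**Figure D4:**
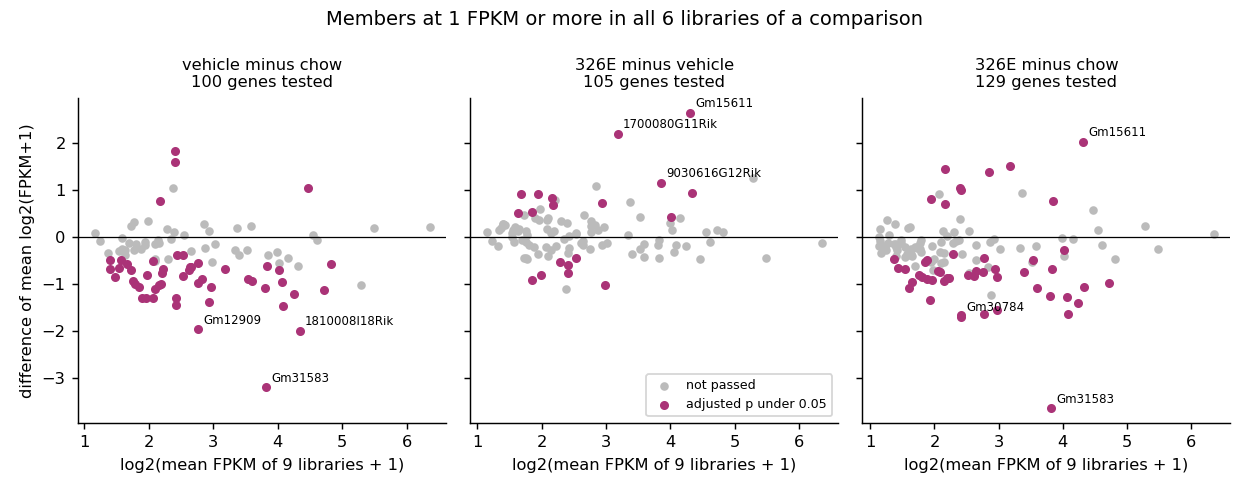
Difference of mean log2(FPKM+1) for the members tested in each comparison, plotted against log2 of the mean FPKM of all 9 libraries plus 1, with members at an adjusted p under 0.05 in purple and the others in grey. Most purple points lie below 0 in vehicle minus chow (47 of 51) and in 326E minus chow (41 of 50), and 12 of 19 lie above 0 in 326E minus vehicle.

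Members and the protein-coding gene beside them were compared pair by pair, where both could be tested. On the diet, 49 pairs were tested, both genes passed in 10, and these had the same direction in 8 and opposite directions in 2. In 13 pairs only the member passed and in 9 only the partner. In all, 23 members and 19 partners of the 49 pairs passed, against 41.6% of all genes tested. These counts are a description, beside members of which 47 of the 51 that passed on the diet fell. Between 326E and chow 24 members and 21 partners of 58 pairs passed, against 26.8% of all genes tested. Both passed in 15 of these pairs, 13 in the same and 2 in opposite directions. Of the diet pairs 22 share exonic bases with an opposite strand, where reads cannot be told apart, and 3 of these had both genes called, all in the same direction. In the 19 pairs with starts within 5 kb and no overlap on the opposite strand, both were called in 5, of which 3 went in the same direction. Overlap on the same strand was not examined in these pairs.

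**Figure D5:**
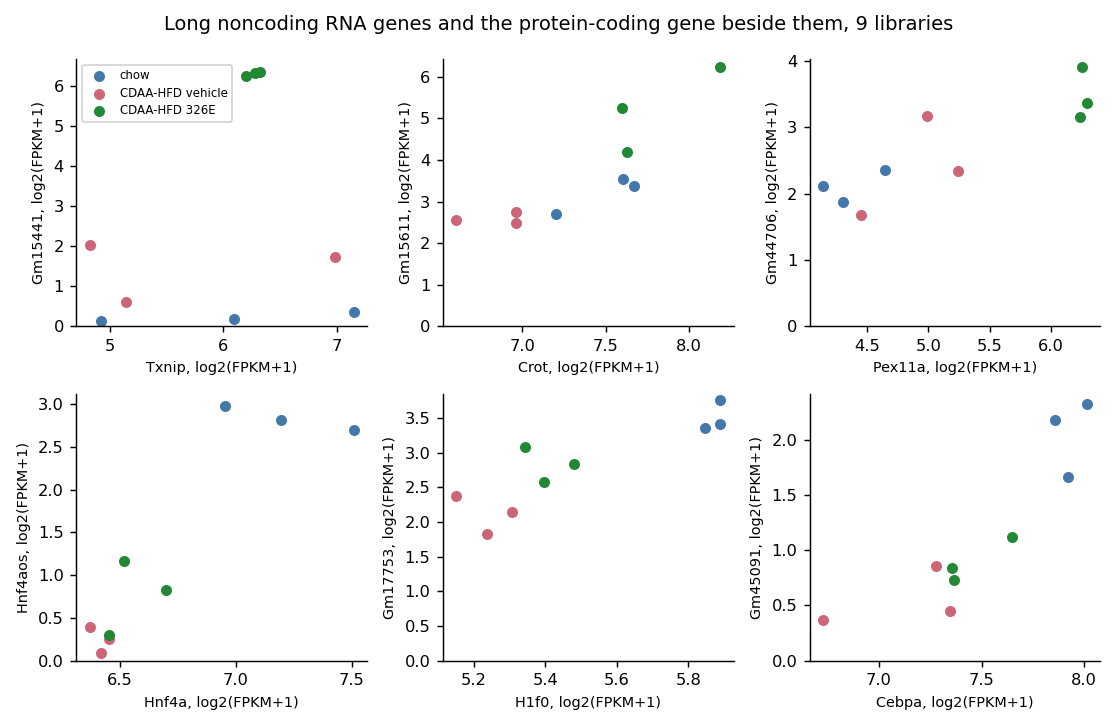
Level of 6 members (vertical axis) against the protein-coding gene beside them (horizontal axis), both on the log2(FPKM+1) scale, with 1 point per library coloured by group. Gm15441 is high in the 326E libraries at middling Txnip levels, whereas Hnf4aos and Gm45091 are highest in the chow libraries, where Hnf4a and Cebpa are also highest.

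Known classes of long noncoding RNA were then examined, from lists that also hold genes of other biotypes. Hosts of small nucleolar RNAs carry guides for ribosomal RNA modification in their introns. Of 17 in the table, 7 had a biotype of the rule and 4 were members, Snhg6, Epb41l4aos, Snhg18 and Snhg12, while Gas5 and others are annotated as processed transcripts. On the diet 1 rose and 2 fell of 12 tested, none of the 3 a member, against 20.8% and 20.8% of all genes, and voom called 1. The median was -0.16. Of those called, Snhg11 passed the filter only through the chow libraries. Between 326E and vehicle limma called 0 of 14, with 1 at an unadjusted p under 0.05 and 0 called by voom. Snhg18 measured 1.3, 0.571 and 0.857 FPKM in chow, 2.88, 3.87 and 3.09 FPKM in vehicle and 3.28, 2.91 and 2.73 FPKM in 326E livers, below all CDAA-HFD libraries in every chow library, with no test against chow. Snhg6 and Epb41l4aos averaged 11 and 10.5 FPKM, and neither passed in any comparison. Snhg12 had -0.08 ± 0.17 between 326E and vehicle (adjusted p = 0.803). Tug1, in the list of growth-related RNAs, averaged 6.64 FPKM, with differences of 0.13 ± 0.14 on the diet and -0.17 ± 0.14 under 326E (adjusted p = 0.48 and 0.456).

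Among 9 imprinted RNAs, 1 was a member, Meg3 (chromosome 12, 109541001 to 109571726), a maternally expressed RNA of the Dlk1-Dio3 region. It measured 0.124, 0.0512 and 0.0503 FPKM in chow, 1.06, 1.2 and 1.51 FPKM in vehicle and 0.0751, 0.0948 and 0.0181 FPKM in 326E livers. All vehicle libraries were above 1 FPKM and all others far below, and the rule used this difference, so it has no test. Rian, a neighbour in the same imprinted region with another biotype and no member, measured 0.246, 0.0677 and 0.0799 FPKM in chow, 1.37, 1.86 and 2 FPKM in vehicle and 0.0807, 0.0941 and 0.0863 FPKM in 326E livers. H19, an imprinted RNA of fetal liver below the membership level, measured 0.157, 0.0941 and 0.111 FPKM in chow, 0.795, 0.82 and 2.93 FPKM in vehicle and 0.805, 0.27 and 0.693 FPKM in 326E livers. Only in the vehicle group did Rian or H19 have 0.5 FPKM or more in all 3 libraries, so they are given as values, with no test. Peg13, also on this list and of another biotype, was above 1 FPKM in every library. Its means were 2.28 FPKM in chow, 2.62 FPKM in vehicle and 2.72 FPKM in 326E livers. It passed neither on the diet nor for 326E over vehicle (limma adjusted p = 0.436 and 0.838).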

How the data were processed

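The 9 libraries were made from liver poly(A) RNA. Per the submitters' processing notes, HISAT2, featureCounts and mm10 were used; versions, annotation release and strand setting are not given in the sources used here. The values deposited by the authors are FPKM. Multiplied by gene length, the deposited FPKM gave whole reads (tolerance 0.01) in 100% of values, and their library sizes were 0.828 to 1.19 of total assigned reads. Genes with at least 0.5 FPKM in 3 of 9 libraries (13737) entered 1 limma fit of all 9 libraries (log2(FPKM+1), trended variance, 6 residual degrees of freedom; limma 3.58.1, R 4.3.3). Gene layout came from GENCODE vM21, in which 244 of the 250 members have the deposited coordinates. Named genes were the 6 largest rises and falls per comparison among called members, and among untested members without overlap of groups; list members; the 8 most abundant; partner genes; and those nearest the threshold. Other genes named were chosen after their values were seen. One locus that the rule named is not reported here. Members and lists were chosen with earlier results of these data known. Alternatives were pseudocounts of 0.1 and 5, other filters, total-read and quantile scaling, voom on whole reads, only the 6 libraries compared, a replicate block, thresholds of 0.5 and 2 FPKM, members without opposite exons, and each library left out. Vehicle replicate 2 alone, and membership on total-read scaling, were added once values had been seen. The fit was tested on simulated data. Python 3.11.15, pandas 2.3.3, numpy 2.4.6 and matplotlib 3.10.9 were used.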

Additional observations from a re-analysis of the deposited data

How the results depend on the processing

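For vehicle against chow, the count of members that rose was 12 scaled to total reads, 8 and 1 with a threshold of 0.5 and 2 FPKM, and 2 without opposite exons, against 4. The count that fell was 27 scaled to total reads, and 73 and 26 at 0.5 and 2 FPKM, against 47. For 326E against vehicle, the rises were 6 with no filter, against 12, and the falls 3 with no filter, against 7. Most of these calls were also lost with vehicle replicate 2 alone, where 1 vehicle library is left. For 326E against chow, the rises were 5 at 2 FPKM, against 9. The falls were 23 scaled to total reads, 27 at 2 FPKM and 25 without opposite exons, against 41. The causes were not tested, beyond fewer or more genes entering at other thresholds. Leaving out each library gave 3 to 5 rises and 39 to 47 falls on the diet, 6 to 17 and 2 to 8 for 326E against vehicle, and 7 to 11 and 28 to 46 for 326E against chow. With the replicate block, the rises and falls were 4 and 46 on the diet, 9 and 6 for 326E against vehicle, and 8 and 38 against chow, and 49 of 51, 15 of 19 and 45 of 50 calls remained. Same-numbered libraries did not deviate together (r from -0.244 to 0.0236 over 9 pairs, against -0.181 to 0.193 for other pairs). With 3 libraries per group, such correlations cannot exclude that equal numbers mark a pair. Of 1836 alternative values of single named members with a test, 1709 kept direction and call, 101 lost the call, 26 gained one and 0 reversed. A single read on 2 kb of gene equals 0.0246 to 0.0455 FPKM, which limits the precision of members near the threshold.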
